A study of Mus musculus with 2 samples.

Results

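The Id genes, the E protein genes and Hes1 were followed in BM LSKs (lineage-negative, Sca1-positive and c-Kit-positive stem and progenitor cells) of Scl/tTA-BA mice. They were taken by gene name as Id1, Id2, Id3, Tcf3, Tcf4, Tcf12 and Hes1, 7 genes of the 34745 in the tables, and each name matched 1 row. In these C57BL/6 mice the Scl sequences drive the tetracycline transactivator, which switches on the BCR/ABL (BA) transgene once doxycycline is removed from the drinking water. The week-0 library came from mice still given doxycycline and the week-3 library from mice 3 weeks after its withdrawal, and mice of both groups carried both transgenes. Each library was made from LSKs of 3 mice mixed together, so there was 1 library per time point and no measure of the spread between mice. The effects of BA and of doxycycline removal cannot be told apart in this design, and the age of the mice was not given in the sources used here.

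E proteins are basic helix-loop-helix (bHLH) transcription factors that bind as dimers to the E-box, a short DNA motif. Id proteins have the helix-loop-helix that makes dimers but lack the basic region that contacts DNA, so a dimer of an Id protein with an E protein does not bind the E-box. In early blood cells E proteins support lymphoid genes and, paired with Tal1 or Lyl1, stem cell and erythroid genes, whereas Id1 and Id3 are classical targets of BMP and SMAD signalling. Hes1 is a bHLH repressor and the best known target of Notch signalling.

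Gene reads totalled 6356164 at week-0 and 3886695 at week-3. RPM is the reads of a gene scaled to this total. The limit that a count of 0 allows, 3 reads, was 0.472 RPM at week-0 and 0.772 RPM at week-3. Differences are given as the log2 ratio of RPM, week-3 over week-0, without a pseudocount. Their 95% intervals are exact Clopper-Pearson intervals from the reads of both libraries, and they include no error but that of counting reads. Amplified cDNA can give several reads from 1 molecule, so the intervals may be too narrow even for counting. Counting error below means the error of these read counts alone. A gene was called lower or higher when the ratio was at most 0.5 or at least 2, among the 12192 genes with at least 20 reads over both libraries. Each call compares these libraries, not the conditions, and whether the libraries would differ as much between mice of 1 group was not measured. Kit and Ly6a, which encode the sorting markers c-Kit and Sca1, and the progenitor gene Cd34 had log2 ratios from -0.61 to -0.42, all with at least 199 reads in each library. Mouse Bcr had 371 week-0 reads and 108 week-3 reads, and mouse Abl1 had 395 and 144. These are the endogenous genes and do not check the transgene.

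Id1, Id3 and Hes1 were far lower at week-3, whereas Id2 and all 3 E protein genes stayed within 2-fold. At week-3 Hes1 was 20.1-fold lower, Id3 12.3-fold lower and Id1 4.09-fold lower. The number called lower was 3 of 7 genes, beside 15.6% of all genes tested, and the number called higher was 0 of 7, beside 10.6% (26.2% in either direction). The exact test of edgeR with an assumed biological coefficient of variation of 0.1 called the same 3 genes past 2-fold, beside 13.5% of all genes lower and 9.42% higher (23% in either direction). With an assumed value of 0.4 it called Hes1 and Id3, beside 1.63% lower and 0.41% higher (2.04% in either direction). All 7 genes passed the minimum of 20 reads. Their median log2 ratio was -0.44, beside 0.07 for all genes tested. In bulk RNA, fewer cells that express a gene and less RNA per cell cannot be told apart.

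Id1 (ENSMUSG00000042745), a BMP target that restrains the differentiation of stem cells, lies on the plus strand of chromosome 2 of GRCm38 from 152736251 to 152737410. It had 1880 week-0 reads and 281 week-3 reads. Its FPKM, the deposited value that scales fragments by gene length and library depth, was 141 and 34.5. The log2 ratio was -2.03 (95% interval -2.22 to -1.85). The week-3 library was the low one, and 6.09% of the genes tested had a lower ratio.

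Id3 (ENSMUSG00000007872), which is often induced together with Id1, lies on the plus strand of chromosome 4 from 136143497 to 136145755. It had 1202 week-0 reads and 60 week-3 reads, with an FPKM of 82.5 and 6.73. The log2 ratio was -3.61 (95% interval -4.01 to -3.24), and 2.09% of the genes tested had a lower one. Id3 was lower not only against the library total but also against Id1. The ratio of Id3 reads to Id1 reads was 0.639 at week-0 and 0.214 at week-3, an odds ratio of 0.334 (exact conditional 95% interval 0.246 to 0.447). Such an odds ratio does not depend on how the libraries are scaled.

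Id2 (ENSMUSG00000020644), which is known for its part in natural killer cells, innate lymphoid cells and dendritic cells, lies on the minus strand of chromosome 12 from 25093801 to 25096092. It had 351 week-0 reads and 216 week-3 reads, and its FPKM was 43.5 and 43.8. The log2 ratio was 0.01 (95% interval -0.24 to 0.26), so a change of 2-fold lay outside the counting interval. The odds ratio of Id1 reads to Id2 reads between the libraries was 0.243 (95% interval 0.196 to 0.302) and that of Id3 to Id2 was 0.0813 (0.0585 to 0.111). The ratios of the 3 Id genes thus differed from each other by more than counting error. Id4 had 5 week-0 reads and 0 week-3 reads, too few to compare.

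**Figure D1:**
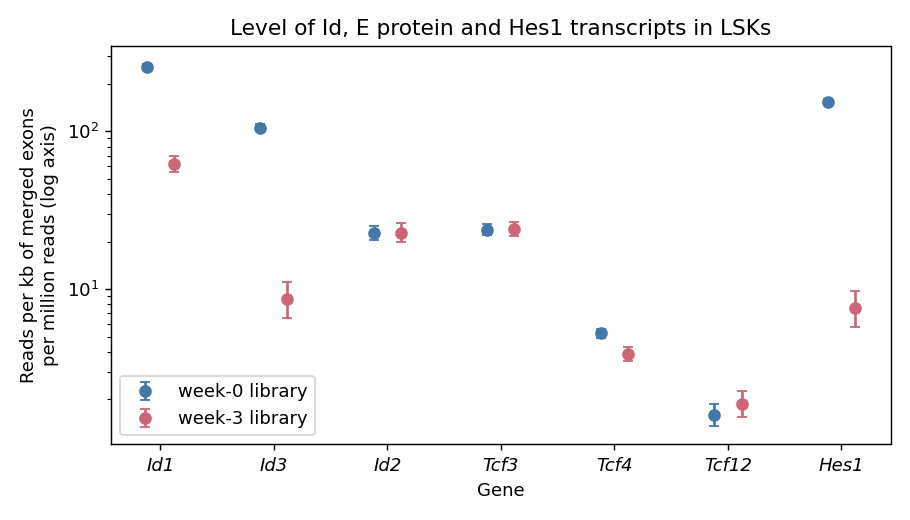
Level of the 7 genes (x axis) as RPM per kilobase of merged exons (y axis, log scale) for the week-0 library (blue) and the week-3 library (red). Bars are exact Poisson 95% intervals of the reads, and the 2 points of Id1, Id3 and Hes1 lie far apart whereas those of Id2, Tcf3 and Tcf12 overlap.

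Hes1 (ENSMUSG00000022528) lies on the plus strand of chromosome 16 from 30064384 to 30067796. It had more reads than any of the other genes of the group at week-0, 1976, and only 60 at week-3. Its FPKM was 109 and 5.40. The log2 ratio of -4.33 (95% interval -4.73 to -3.96) was the lowest of the 7, and 1.38% of the genes tested had a lower one. The odds ratio of Hes1 to Id3 reads was 0.608 (95% interval 0.415 to 0.892), so the decrease of Hes1 was larger than that of Id3 by more than counting error. Both had 60 reads at week-3.

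Tcf3 (ENSMUSG00000020167), whose splice forms are the E proteins needed for B cell commitment, lies on the minus strand of chromosome 10 from 80409514 to 80433647. It had 612 week-0 reads and 378 week-3 reads, and an FPKM of 10.2 and 10.3. The log2 ratio was 0.01 (95% interval -0.17 to 0.20), so a change of 2-fold lay outside the counting interval. Reads of its splice forms are pooled in the gene's count, so a switch between them could not be seen.

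Tcf4 (ENSMUSG00000053477) is the E protein gene of plasmacytoid dendritic cells and not the Wnt pathway factor that shares the name. It lies on the plus strand of chromosome 18 from 69343356 to 69689079. It had 915 week-0 reads and 413 week-3 reads, with an FPKM of 2.84 and 2.10. The log2 ratio was -0.44 (95% interval -0.61 to -0.27), lower by more than counting error but within 2-fold. The 4 dendritic cell markers took 0.0977% of week-0 reads and 0.0244% of week-3 reads, nearly all on Flt3, which progenitors also express. Siglech, a marker of plasmacytoid dendritic cells, had 21 reads and 3. Their part in the Tcf4 value was not tested.

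Tcf12 (ENSMUSG00000032228), an E protein gene with a role in early T cells, lies on the minus strand of chromosome 9 from 71842688 to 72111871. It had the fewest reads of the 7 at week-0, 157, and 113 at week-3. Its FPKM was 0.792 and 0.933. The log2 ratio was 0.24 (95% interval -0.13 to 0.59). It overlaps 7 other genes of the tables, and their 24 week-0 reads and 27 week-3 reads could hold reads of Tcf12, since the counting was not stated to use strand.

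**Figure D2:**
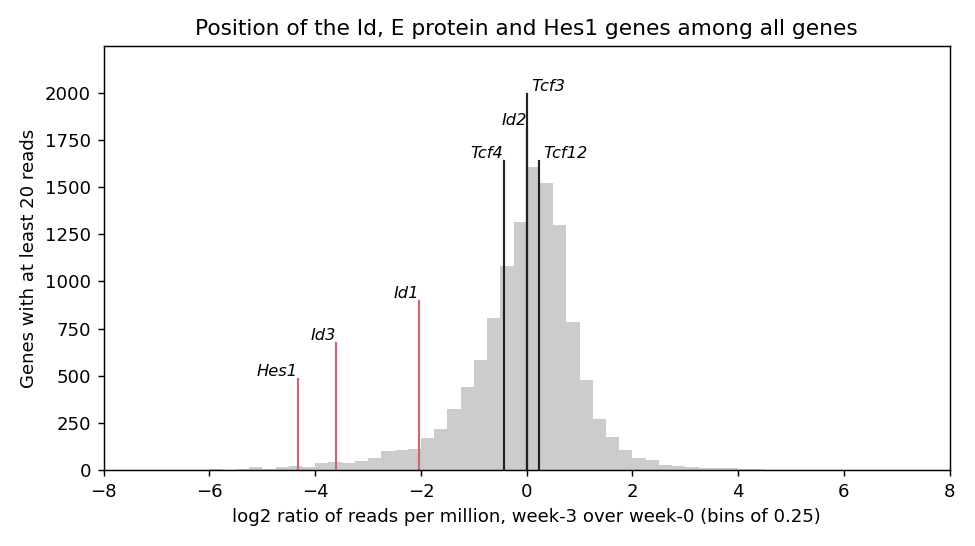
Number of genes with at least 20 reads (y axis) in bins of 0.25 of the log2 ratio of RPM, week-3 over week-0 (x axis), with 7 lines for the ratios of the named genes, red where called lower. The height of a line carries no value, and 110 genes with 0 reads in 1 library and 3 genes beyond the axis are left out. Hes1, Id3 and Id1 lie in the lower tail and Id2, Tcf3, Tcf4 and Tcf12 in the body of the distribution.

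The balance of Id to E protein transcripts was compared next, since Id proteins act by taking E proteins out of DNA-binding dimers. The 3 Id genes together had 3433 week-0 reads and 557 week-3 reads, and the 3 E protein genes had 1684 and 904. Id reads were thus 2.04 times the E protein reads at week-0 and 0.616 times at week-3. The odds ratio between the libraries was 0.302 (95% interval 0.267 to 0.342), or 3.31-fold lower at week-3. It restates the lower Id1 and Id3 values given above, since Id2 had a log2 ratio of 0.01. These are ratios of reads, not corrected for the length of the genes. Per kilobase of merged exons, the summed level of the Id genes was 12.5 times that of the E protein genes at week-0 and 3.14 times at week-3, so by this measure Id transcripts were the more abundant in both libraries. Protein was not measured here.

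The make-up of the Id reads also differed. Id2 made up 10.2% of them at week-0 (exact Clopper-Pearson 95% interval 9.23 to 11.3) and 38.8% at week-3 (34.7 to 43.0). Id3 went the other way, from 35.0% (33.4 to 36.6) to 10.8% (8.32 to 13.6). The share of Id1 was 54.8% and 50.4%, and its intervals overlapped. Among the E protein reads, Tcf4 had a share of 54.3% (51.9 to 56.7) at week-0 and 45.7% (42.4 to 49.0) at week-3. The share of Tcf3 was 36.3% and 41.8% and that of Tcf12 9.32% and 12.5%.

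**Figure D3:**
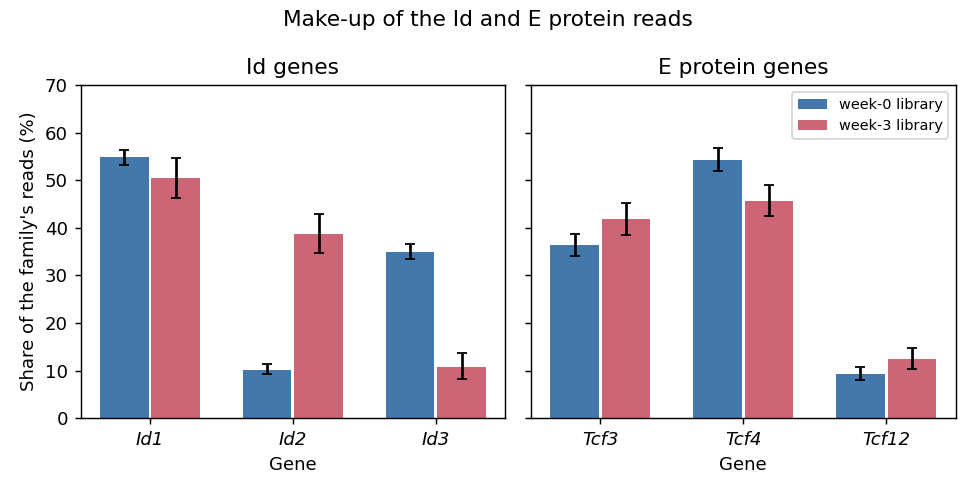
Share of the reads of the 3 Id genes (left) and of the 3 E protein genes (right) that fell on each gene (y axis, percent), in the week-0 library (blue) and the week-3 library (red), with exact Clopper-Pearson 95% intervals. Id2 went from 10.2% to 38.8% of the Id reads and Id3 from 35.0% to 10.8%, while shares of the E protein genes moved by less than 10 percentage points.

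Levels of different genes were compared as RPM per kilobase of merged exons, a scale chosen after seeing the lengths behind the deposited FPKM. For Id1, Id3, Hes1 and the E protein genes the deposited length was longer than the merged exons. For Id2 it was shorter (1270 against 2438 bases), so Id2 stands higher against the others in FPKM than on this scale. The 2438 bases exceed the span of the Id2 row given above, so they include annotated exons outside it. Whether reads of those exons were counted is not known, and the level of Id2 on this scale may be too low. At week-0 the order was Id1 (255 RPM per kilobase), Hes1 (153), Id3 (106), Tcf3 (23.8), Id2 (22.7), Tcf4 (5.26) and Tcf12 (1.59). At week-3 it was Id1 (62.3), Tcf3 (24.1), Id2 (22.8), Id3 (8.62), Hes1 (7.58), Tcf4 (3.88) and Tcf12 (1.87). On this scale the Poisson intervals of Tcf3 and Id2 overlapped in both libraries, and those of Id3 and Hes1 overlapped at week-3. These neighbours thus did not differ on it beyond counting error. By the deposited FPKM, Id2 was above Tcf3 in both libraries (43.5 against 10.2 at week-0 and 43.8 against 10.3 at week-3). Hes1 and Id3 moved from above Id2 and Tcf3 at week-0 to below them at week-3. Id1 remained the highest of the 7 by this measure in both libraries, but by the deposited FPKM Id2 came first at week-3 with 43.8 against 34.5 for Id1, and the intervals of these values overlapped.

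The other genes of the same circuits were taken from 7 lists. Of 110 listed genes, 66 had at least 20 reads, and 21 of these were called lower and 2 higher. Of all genes tested, 15.6% were called lower and 10.6% higher, with a median log2 ratio of 0.07. These values are the background for the count and median of each list below. The lists were chosen with earlier results of these data known, so their counts are a description. The minimum is a sum over both libraries, so a gene could pass through its week-0 reads alone. Among the genes named below, Hey1, Bhlhe41, Nrarp, Acvr2a, Cd79a and Blnk did so. Such genes entered through the library in which they were high, which favours a call of lower. With edgeR and an assumed coefficient of variation of 0.4, the genes called lower were 0 of the BMP and SMAD list. They were 1 each of the Notch, lymphoid target, Hes and Hey, and E-box repressor lists. The number called higher was 0 in every list. Over all genes tested, these settings called 1.63% lower and 0.41% higher.

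Of 16 other HLH genes that can pair with E proteins, 14 had too few reads to compare. Only Lyl1 and Tal1, the bHLH factors that pair with E proteins in stem cells, passed the minimum, and neither was called. Lyl1 had 1315 week-0 reads and 1161 week-3 reads (log2 ratio 0.53, 95% interval 0.41 to 0.64). Tal1 had 131 and 110 reads (0.46, interval 0.08 to 0.83). The ratio of Id1 and Id3 reads to Lyl1 reads went from 2.34 to 0.294. It leaves out Id2 and sets genes already called lower against Lyl1, so its decrease restates their values. Of the LIM-only, Ldb1 and Gata genes, which build larger complexes on these dimers, 12 of 14 passed the minimum, 0 were called lower and 2 were called higher. Lmo1, a LIM-only adaptor, went from 35 to 96 reads (log2 ratio 2.17, 95% interval 1.59 to 2.77), and Lmo4 from 203 to 267 (1.10, 0.84 to 1.38). Lmo2, the LIM-only adaptor of the stem cell complex, had 1658 and 807 reads (-0.33), its dimer partner Ldb1 534 and 227 (-0.52), and Gata2 896 and 378 (-0.54). TMM scaling moved every log2 ratio by -0.11. With it Lmo4 (1.10 by total reads) was no longer called and Gata3 (-0.90 by total reads) was called lower. The list then had 1 gene in each direction. Ssbp2 (0.02), Ssbp4 (-0.78) and the corepressor gene Cbfa2t3 (0.58) were also within 2-fold with either scaling.

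Of the repressors outside the Id group that act on E-box sequences, 4 of 7 passed the minimum and 2 were called lower. Bhlhe40 went from 1066 reads to 44, a log2 ratio of -3.89 (95% interval -4.36 to -3.45). Its relative Bhlhe41 had 55 week-0 reads and 2 week-3 reads (-4.07, interval -7.15 to -2.15). Zeb1 (-0.86) and Zeb2 (0.72), zinc finger repressors chosen for mention after their values were seen, were within 2-fold.

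Among the relatives of Hes1 and their Groucho corepressors, 9 of 15 genes passed the minimum and 3 were called lower. Hey1, a Notch target that can pair with Hes1, went from 118 reads to 3, a log2 ratio of -4.59 (95% interval -6.89 to -3.01). Hes6, a relative that opposes Hes1, went the other way without reaching 2-fold, from 635 to 724 reads (0.90, interval 0.74 to 1.05). The odds ratio of Hes1 to Hes6 reads was 0.0267 (95% interval 0.0198 to 0.0353). The corepressor genes Tle3, with 1220 and 330 reads (-1.18), and Tle2, with 121 and 31 (-1.26), were called lower, and Aes, with 902 and 420 (-0.39), was not.

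In the Notch pathway, which acts upstream of Hes1 and Hey1, 6 of the 18 genes with enough reads were called lower and 0 higher. The median log2 ratio of the 18 was -0.57. The ligand gene Jag2 was lowest, with 2442 week-0 reads and 64 week-3 reads (log2 ratio -4.54, 95% interval -4.93 to -4.19). The receptor gene Notch1 had 981 reads and 110 (-2.45, interval -2.74 to -2.16), whereas Notch2, the receptor with the most reads, had 3319 and 1193 (-0.77, -0.86 to -0.67). Maml1, a coactivator of cleaved Notch, had 324 and 37 reads (-2.42). The feedback gene Nrarp had 21 and 2 (-2.68, interval -5.82 to -0.65). Lfng, which adds sugars to Notch, had 590 and 124 reads (-1.54), while its relative Mfng had 1492 and 569 (-0.68). Of the genes that take part in cleaving Notch, Adam10 had a log2 ratio of 0.95 and Ncstn of -0.12, and neither was called.

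In the BMP and SMAD pathway, which acts upstream of Id1 and Id3, 4 of the 13 genes with enough reads were called lower and 0 higher, with a median log2 ratio of -0.66. Smad6, an inhibitory SMAD gene with 29 and 9 reads (-0.98, interval -2.24 to 0.14), was not among them. With TMM or median-of-ratios scaling Smad6 was called lower, although its interval includes no change. Smad7, an inhibitory SMAD that is itself a target of the pathway, had 1190 week-0 reads and 162 week-3 reads (log2 ratio -2.17, 95% interval -2.41 to -1.93). Bambi, a decoy receptor, had 691 and 97 (-2.12, interval -2.44 to -1.81). Eng, a coreceptor, had 1402 and 287 (-1.58), and the receptor gene Acvr2a had 69 and 12 (-1.81). The SMAD genes that carry the BMP signal, named after their values were seen, were within 2-fold, with log2 ratios of 0.63 for Smad1, -0.43 for Smad5 and -0.10 for Smad4. Among the BMP receptor genes, Bmpr2 had 168 and 58 reads (-0.82) and Acvr1 had 17 and 11 (0.08), while Bmpr1a and Bmpr1b had at most 4 reads in either library.

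Genes known from lymphoid cells as targets of E proteins were mostly lower at week-3. Of 8 genes with enough reads, 6 were called lower and 0 higher, with a median log2 ratio of -1.91. These counts include genes, such as Cd79a and Blnk, that passed the minimum through their week-0 reads alone. The other 7 listed genes had too few reads to compare. Cdkn1a, which encodes a cell cycle inhibitor and is also a p53 target, had 14243 week-0 reads and 1439 week-3 reads (log2 ratio -2.60, 95% interval -2.68 to -2.52). Dntt, the terminal transferase of lymphoid progenitors, had 1589 and 325 (-1.58, interval -1.76 to -1.41), and Foxo1 had 126 and 20 (-1.95). Cd79a, part of the B cell receptor, had 114 and 2 (-5.12, interval -8.19 to -3.24), and the B cell adaptor gene Blnk had 37 and 1 (-4.50, interval -9.84 to -1.93). Cd79b (0.17) and Vpreb1 (-0.12), named after their values were seen, were not called. Cd79a is also counted among the B lineage markers below. The part of E protein activity or of B lineage cells in the values of this list was not tested.

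**Figure D4:**
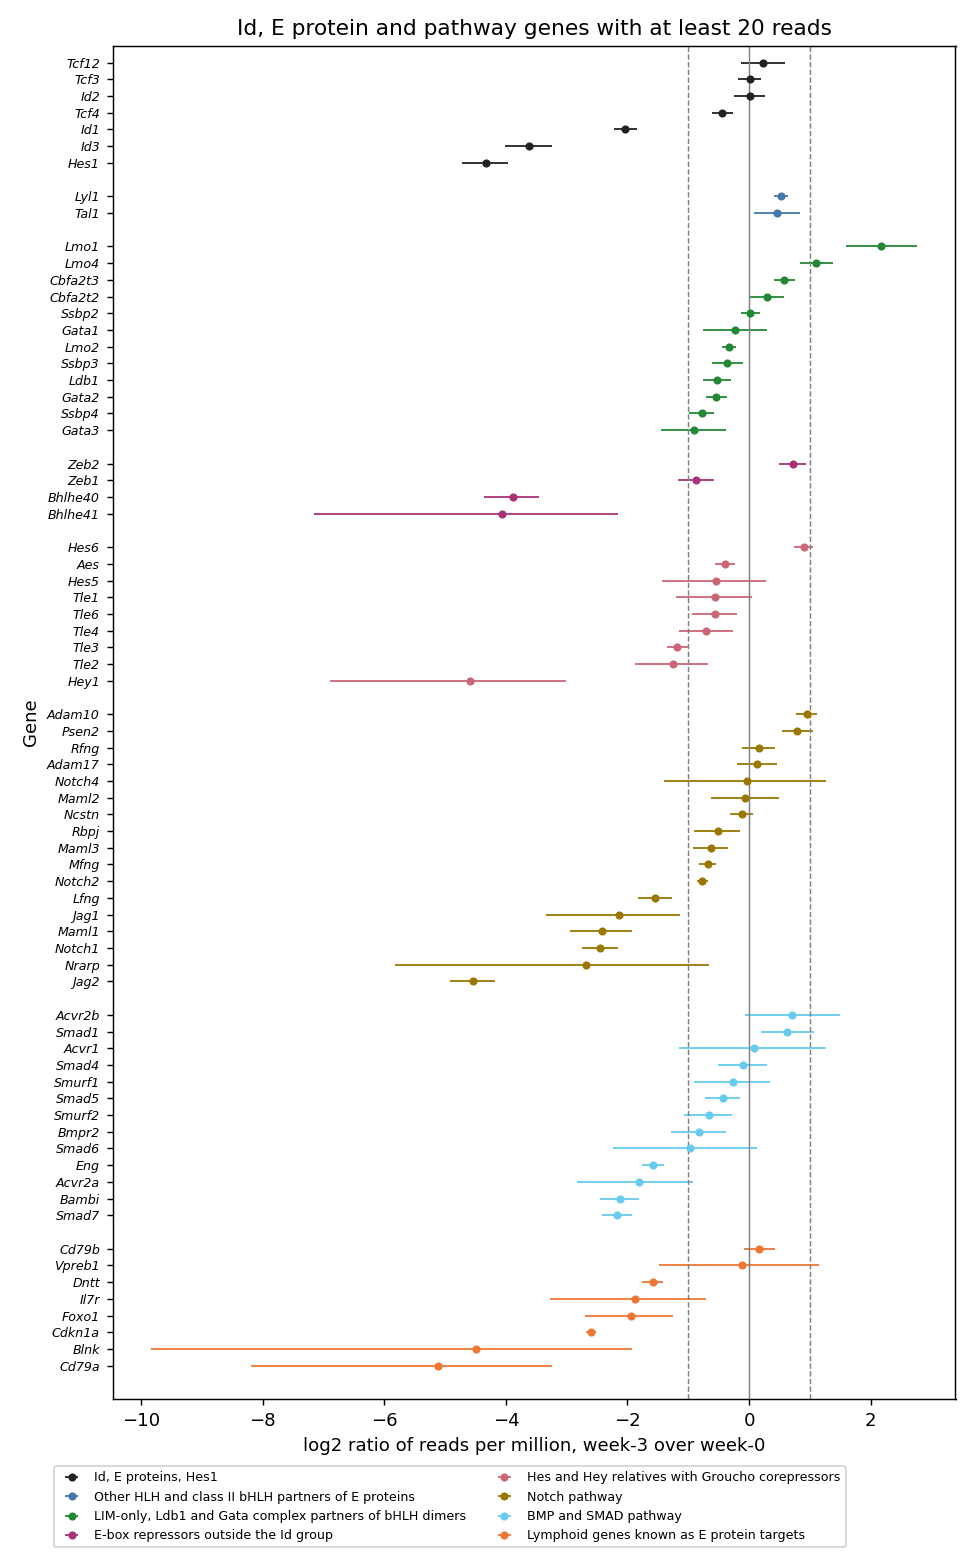
Log2 ratio of RPM, week-3 over week-0 (x axis), for the 7 genes and the genes of the 7 lists that had at least 20 reads (y axis, 1 list gene not shown), with exact 95% counting intervals and dashed lines at 2-fold. The E protein genes, Id2 and most LIM-only, Ldb1 and Gata genes lie between the dashed lines, and Hes1, Id3, Hey1, Jag2, Bhlhe40 and Cd79a lie far to the left.

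Promoter stretches of 4 of these genes are shown to put the motifs beside the values. They come from RefSeq on GRCm38.p6 and are the longest stretch outside GENCODE M21 exons of the gene within the 250 bases before the start. The table held a promoter for 4 of the 7 genes. The genes were chosen after their values were seen. Id2 is the Id gene that stayed within 2-fold, Dntt and Cd79a are E protein targets that were lower, and Lfng is a Notch pathway gene that was lower. Capitals mark the E-box CANNTG in the first 3 and the Rbpj core TGGGAA, searched on both strands, in Lfng.
Id2, chr12:25096254-25096342, minus strand: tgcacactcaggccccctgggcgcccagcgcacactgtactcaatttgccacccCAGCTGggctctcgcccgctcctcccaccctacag
Dntt, chr19:41029025-41029274, plus strand: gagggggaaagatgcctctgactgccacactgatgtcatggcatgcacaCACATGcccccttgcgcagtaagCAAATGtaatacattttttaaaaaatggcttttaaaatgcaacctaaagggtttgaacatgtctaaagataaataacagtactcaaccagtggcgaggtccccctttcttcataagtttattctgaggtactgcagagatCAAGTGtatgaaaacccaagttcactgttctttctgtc
Cd79a, chr7:24897247-24897380, plus strand: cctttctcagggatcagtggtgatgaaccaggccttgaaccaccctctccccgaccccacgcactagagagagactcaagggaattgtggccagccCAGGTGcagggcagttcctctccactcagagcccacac
Lfng, chr5:140607091-140607319, plus strand: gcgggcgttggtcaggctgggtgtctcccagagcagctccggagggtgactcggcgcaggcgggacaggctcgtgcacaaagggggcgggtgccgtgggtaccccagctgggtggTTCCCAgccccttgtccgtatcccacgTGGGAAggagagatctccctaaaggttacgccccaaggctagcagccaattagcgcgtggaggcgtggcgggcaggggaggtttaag

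The Id2 stretch, which lies in an intron of a longer annotated Id2 transcript, held 1 E-box, 196 bases before the start, and 33.0% of all 32851 promoters held one in the same stretch. Dntt held 3, at 201, 178 and 38 bases before the start, where 66.2% of promoters held at least 1. Cd79a held 1 at 154 bases (45.4% of promoters). Lfng held the Rbpj core at 135 and at 108 bases, and 6562 of the 32851 promoters held it in the same stretch. It also held 2 E-boxes, which are not marked (63.4% of promoters held at least 1). A match of letters is a description and was not tested as a binding site. The promoters of Id1, Hes1 and Tcf4 were not analysed here, and that of Id3 is not shown.

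Other cell types and immediate-early genes also moved between the libraries. The 4 mast cell markers were all called higher and took 0.00846% of week-0 reads and 0.230% of week-3 reads. The 4 neutrophil markers, all called higher, took 0.239% and 0.972%. The 4 erythroid markers, all called lower, took 0.0809% and 0.00486%. The 4 plasma cell markers took 0.0294% and 0.0220%, mostly on Xbp1 (1454 and 837 reads, log2 ratio -0.09), which was not called. The other 3 were called lower, among them Irf4, which went from 42 reads to 0. The 4 monocyte and macrophage markers took 0.00615% and 0.00607%. The B lineage markers had 133 reads in all at week-0 and 4 at week-3, with Cd22 at 0 in the week-3 library, and 114 of the 133 were Cd79a. The T lineage markers had 15 and 3 reads. The progenitor gene Flt3 had a log2 ratio of -2.02. A set of 10 immediate-early genes, which respond within minutes to many stimuli, took 3.93% of week-0 reads and 1.14% of week-3 reads, and 9 of them were called lower. The part of these groups in the lower Id1, Id3 and Hes1 values, or in those of the list genes, was not tested.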

How the data were processed

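The RNA of sorted BM LSKs gave 1 library per time point. The authors made cDNA by a SMARTer low-input method for Illumina paired-end sequencing, kept trimmed reads of at least 25 nt and mapped them to GRCm38 with TopHat2 2.0.9 allowing 2 mismatches. They deposited a raw count of reads and an FPKM for each gene, and the counting tool and annotation are not given in the sources used here. Of 11119 genes with more than 20 reads at week-0, the deposited FPKM of 70.2% were divided by a length within 2% of the sum of all distinct exon records of GENCODE M21, with overlapping exons counted more than once. FPKM of such genes with many transcripts are thereby low against other genes, Id2 is not among them, and ratios between libraries are not affected. Levels of different genes were therefore also computed as RPM per kilobase of merged GENCODE M21 exons.

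Reads were scaled by the total on genes. The edgeR quasi-likelihood test and the DESeq2 test need replicates and could not be fitted. edgeR 4.0.16 was used for TMM scaling and for an exact test with an assumed biological coefficient of variation, and DESeq2 1.42.0 for size factors, both as alternatives. Python 3.11.15, scipy 1.17.1 and R 4.3.3 were used, and the calls and intervals were tested on simulated data. The simulated counts had a coefficient of variation of 0.1 for the calls and counting error alone for the intervals. They thus checked the computation, not the spread between mice or the effect of amplification. The 7 genes, the lists and the tests were chosen with earlier results of these data known. Named besides the 7 genes are up to 4 genes of each list with the largest ratio past 2-fold and those with at least 500 reads in a library. A few genes covered by the rule or by the marker lists are counted but not reported here by name. Tal1, Id4, Gata3, Zeb1, Zeb2, Smad1, Smad4, Smad5, Smad6, Bmpr1a, Bmpr1b, Bmpr2, Acvr1, Cd79b, Vpreb1 and single marker genes were named after their values were seen.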

Additional observations from a re-analysis of the deposited data

How the results depend on the processing

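TMM scaling moved every log2 ratio by -0.11 and the median of all genes to -0.04, and median-of-ratios scaling moved them by -0.09. Neither these nor pseudocounts of 0.1 or 1 FPKM moved the ratio of any of the 7 genes out of its counting interval, although Id2 and Tcf3 changed from 0.01 to -0.10 with TMM. Hes1 and Id3 were called lower in all 7 alternatives for the calls, and Id1 in all but the edgeR test with an assumed coefficient of variation of 0.4, which left 2 of the 7 genes. That test left 199 genes lower and 50 higher over all genes, where the fold alone called 1903 and 1293. With any read in either library and a pseudocount of 1 read the numbers were 3343 and 3875, with genes above 0 in both libraries 2191 were higher, and with limits of 1.5 and 0.67 they were 3024 and 2894. Of all calls, 59.5% were lower, 46.3% with any read and 79.9% with the coefficient of 0.4. The odds ratio of Id to E protein reads was 0.206 without Id2, 0.415 without Id3 and 0.254 without Tcf4. From summed levels it was 0.252 with merged exons and 0.254 with the longest coding transcript. It was below 1 in every alternative run, but each of these kept Id1 or Id3, which were called lower. The alternatives thus could not show a lower balance apart from these genes. Against the order by deposited FPKM, the number of genes with another rank was 2 at week-0 and 3 at week-3 with merged exons, 2 and 6 with the longest coding transcript, and 4 and 7 with RPM. Choices of merged exons, coding transcripts and leaving out Id1, Id3, Tcf3 or Tcf12 were added after seeing the data. No library could be left out, and no paired analysis was possible because each time point has 1 library. The cause of these differences was not tested.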

Other observations

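The length behind the deposited FPKM differed from the merged exons for all 7 genes. For Id2 it was 1270 bases, shorter than the 2438 bases of merged exons and the 1969 bases of the longest coding transcript. For Tcf4 it was 50628 bases, against 27382 bases of merged exons and 8577 bases in the longest coding transcript. For Tcf12 it was 31173, 15529 and 6299 bases, and for Tcf3 it was 9441, 4039 and 2950 bases. For Id1 it was 2094 bases, while the merged exons and the longest coding transcript had 1160 bases each. The summed level of the Id genes over that of the E protein genes was 19.3 at week-0 and 6.38 at week-3 by the deposited FPKM, and 8.08 and 2.05 per longest coding transcript. With the longest coding transcript, Tcf4 had a level of 12.4 RPM per kilobase at week-3, beside 12.1 for Id3 and 10.5 for Hes1, and the intervals of neighbours overlapped.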
